A study of Mus musculus with 8 samples.

Results

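Osteoclast differentiation genes were examined in RAW264.7, a mouse macrophage-like line that can be turned into multinucleated osteoclasts by the cytokine RANKL. The 9 genes were chosen by symbol from the deposited count table, which held 22013 genes. They are Tnfrsf11a, Oscar, Calcr, Nfatc1, Dcstamp, Ocstamp, Acp5, Ctsk and Atp6v0d2, and each symbol matched 1 row. One group of 4 libraries came from RAW264.7 cells given PBS, and the other group of 4 from RAW264.7 cells given recombinant FSTL1 (rFSTL1), a secreted glycoprotein, at 100 ng/mL for 24 h. The labels and methods name no RANKL, no gene edit and no other agent for either group, and do not say whether the replicates were separate cultures, so p-values measure the spread between these libraries, which may be technical. RAW264.7 is a single transformed line, so the values describe that line and not primary osteoclast precursors.

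Osteoclasts are bone-resorbing cells that form when cells of the monocyte and macrophage lineage fuse. RANKL binds its receptor RANK, encoded by Tnfrsf11a, and signals through TRAF6, NF-κB and AP-1 to the transcription factor NFATc1, while receptors such as OSCAR add a calcium signal through adaptors with ITAM motifs. NFATc1 then drives fusion genes such as Dcstamp and Ocstamp and resorption genes such as Acp5 and Ctsk, and the calcitonin receptor (Calcr) marks the mature cell. The comparison asked at what level this program stood in unstimulated RAW264.7 cells, and whether it differed after rFSTL1.

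Total counts were 15062023 to 20234477 per library. Of 10 macrophage marker genes, 9 had enough counts to be tested, and their summed level was 5753 to 5911 CPM (the count scaled to the library's total after TMM normalization) under PBS and 5788 to 6016 CPM under rFSTL1. Adgre1, which encodes F4/80, was low for a macrophage marker at 3.43 CPM under PBS, and Mrc1 had 0.226 CPM. Of the other cell types, the 7 osteoblast and stromal markers summed to at most 1.09 CPM in any library, the 4 dendritic markers to 2.67 CPM, the 3 endothelial markers to 1.09 CPM, the 3 lymphocyte markers to 0.257 CPM and the 3 neutrophil markers to 0.0987 CPM. In bulk RNA, fewer cells that express a gene and less RNA per cell cannot be told apart.

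The 9 osteoclast genes of RAW264.7 stood at very different levels. Tnfrsf11a, Nfatc1 and Dcstamp had at least 452 counts in every library, Acp5 was near the limit of testing, and Oscar, Ocstamp, Ctsk and Atp6v0d2 had between 7 and 33 counts over all 8 libraries. Calcr had no count in any library. By edgeR, 0 of the 4 genes that could be tested passed the threshold for a change under rFSTL1 (an adjusted p-value under 0.05), which 0.344% of all 10748 genes tested passed.

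**Figure D1:**
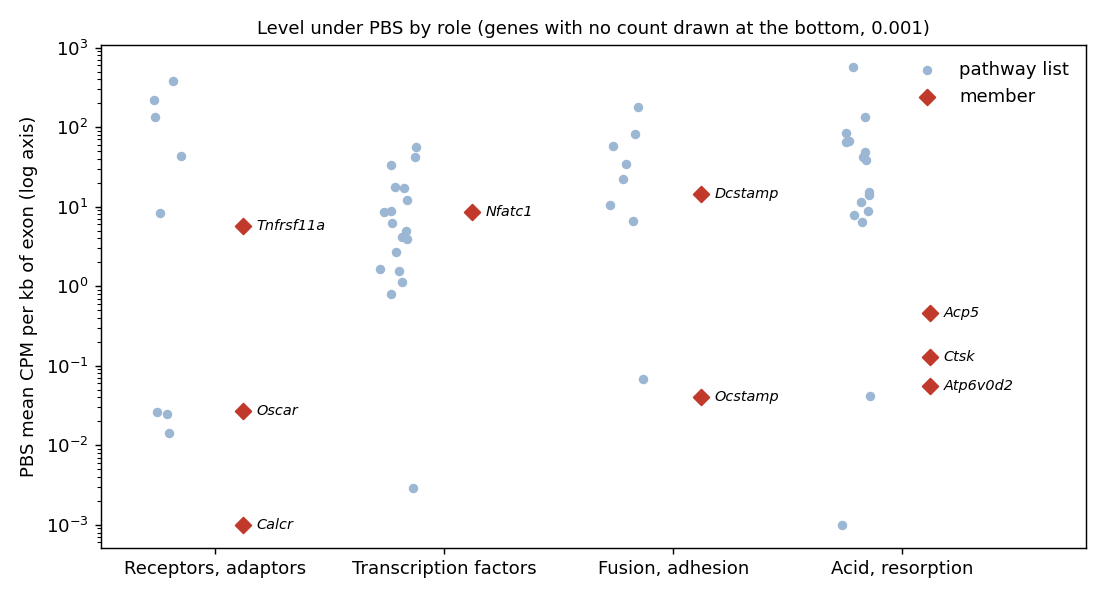
Mean level under PBS (CPM per kb of exon, log axis, n = 4) of the 9 osteoclast genes (red diamonds) beside genes of the RANKL pathway with a like role (blue points, spread sideways for clarity). Tnfrsf11a, Nfatc1 and Dcstamp lie among the expressed pathway genes, while the resorption genes Acp5, Ctsk and Atp6v0d2 lie below 1 CPM per kb.

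To compare levels between genes, CPM was divided by the exon length of each gene in kb (GENCODE M21). On this per-length scale Dcstamp was the highest of the 9 under PBS, with 14.5 ± 1.01 CPM per kb (SD, n = 4). Nfatc1 followed with 8.6 ± 0.372 CPM per kb and Tnfrsf11a with 5.68 ± 0.387 CPM per kb (SD, n = 4 each). The PBS ranges of these 3 genes did not overlap, and the order was the same in 8 of 8 libraries. Next came Acp5, with 0.454 ± 0.154 CPM per kb (SD, n = 4), so that the mean of Tnfrsf11a was 12.5 times that of Acp5. Acp5 was above Ctsk in 8 of 8 libraries, although their PBS ranges overlapped. Below Ctsk the order was not resolved, since the PBS ranges of Ctsk and Atp6v0d2, of Atp6v0d2 and Ocstamp, and of Ocstamp and Oscar overlapped and the order differed between libraries. Among the genes with a count under PBS, per-length levels placed Dcstamp at the 75.5th percentile, Nfatc1 at the 63.2nd and Tnfrsf11a at the 53.7th. Acp5 stood at the 27.6th percentile and Ctsk at the 22.1st, with Atp6v0d2, Ocstamp and Oscar at the 17.9th, 16.3rd and 14.1st.

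The DNA just upstream of the start site is shown for Tnfrsf11a and Ctsk, because these 2 genes stand on either side of the gap in level and RefSeq gives each a single start. Both are the 250 bases before the RefSeq start (GRCm38.p6), 5′ to 3′ on the gene's strand, with CG dinucleotides in capitals.
Tnfrsf11a, chr1:105780473-105780722, plus strand: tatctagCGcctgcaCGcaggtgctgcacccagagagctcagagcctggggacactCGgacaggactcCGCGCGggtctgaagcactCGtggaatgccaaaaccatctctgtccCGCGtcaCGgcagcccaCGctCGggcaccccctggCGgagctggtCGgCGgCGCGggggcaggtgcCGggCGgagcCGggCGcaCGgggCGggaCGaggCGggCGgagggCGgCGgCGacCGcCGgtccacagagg
Ctsk, chr3:95498960-95499209, plus strand: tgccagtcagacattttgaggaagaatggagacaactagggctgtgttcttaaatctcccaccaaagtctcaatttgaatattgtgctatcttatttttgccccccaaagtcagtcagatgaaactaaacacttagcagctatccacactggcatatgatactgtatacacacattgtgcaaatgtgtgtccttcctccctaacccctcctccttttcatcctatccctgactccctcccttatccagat

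The Tnfrsf11a window held 31 CG dinucleotides, more than 94.8% of the 32851 RefSeq windows of this length, whose median was 6. The Ctsk window held 0. Among the other genes whose windows were examined, Oscar, with 7 counts in all, had 2 CG dinucleotides. The 2 windows of Calcr, which had no count, had 24 and 2. The 3 Acp5 windows had 5, 12 and 4. GGAAA, the core letters of an NFAT site, was absent on both strands from the 2 windows shown and from 1 Calcr window, and was found 3 times in the Oscar window, 2, 1 and 1 times in the Acp5 windows and 1 time in the other Calcr window. Of all windows, 55.6% held it. GAGGAA, a motif of PU.1, was found 2 times in the Ctsk window, 1 time in the Oscar window, in none of the other 6 windows and in 23.3% of all windows on either strand, and some of its matches can overlap a GGAAA match. TGANTCA, the AP-1 motif, was found in none of the 8 windows examined and in 6.75% of all windows. Windows were examined for 5 of the 9 genes. None was available for Dcstamp, Ocstamp and Atp6v0d2, and Nfatc1 was left out.

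Tnfrsf11a (ENSMUSG00000026321) encodes RANK, the receptor that lets a precursor respond to RANKL. Its level was 35.9, 31.4, 32.7 and 35.9 CPM in PBS replicates 1 to 4 and 30.2, 33.6, 34.0 and 32.5 CPM in rFSTL1 replicates 1 to 4. The groups overlapped, with 1 rFSTL1 library below all PBS libraries and none above them. The mean was 34.0 ± 2.31 CPM with PBS and 32.6 ± 1.7 CPM with rFSTL1 (SD, n = 4 each). The log2 fold change was -0.06 with a standard error of 0.07 and a 95% interval of -0.2 to 0.08 (adjusted p = 0.697, edgeR quasi-likelihood test with Benjamini-Hochberg adjustment over all genes tested). On the linear scale this interval runs from 0.872 to 1.06 times the PBS level.

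Nfatc1 (ENSMUSG00000033016) encodes the transcription factor regarded as the master regulator of osteoclast formation. It was counted 915 to 1338 times per PBS library and 913 to 1418 times per rFSTL1 library. Its level was 65.8, 65.0, 66.0 and 60.1 CPM in PBS replicates 1 to 4. Under rFSTL1 it was 61.0, 64.8, 70.1 and 72.8 CPM. The rFSTL1 replicates 3 and 4 lay above all PBS libraries, and replicates 1 and 2 lay inside the PBS range. The log2 fold change was 0.07 (standard error 0.06, 95% interval -0.06 to 0.19), and edgeR gave an adjusted p-value of 0.608 after Benjamini-Hochberg correction. The interval allows at most 1.14 times the PBS level.

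Dcstamp (ENSMUSG00000022303) encodes DC-STAMP, a multi-pass membrane protein needed for the fusion of precursors. Its level was 41.7, 37.6, 40.0 and 35.5 CPM in the PBS libraries and 39.0, 37.3, 38.6 and 37.6 CPM in the rFSTL1 libraries. Every rFSTL1 value lay inside the PBS range. The log2 fold change was -0.02 (standard error 0.06, 95% interval -0.15 to 0.1), with an adjusted p-value of 0.882 by edgeR with Benjamini-Hochberg adjustment. Its variation among libraries was 6.94% of the mean under PBS and 2.08% under rFSTL1.

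Acp5 (ENSMUSG00000001348) encodes tartrate-resistant acid phosphatase (TRAP), the enzyme stained to identify osteoclasts. It had 18, 18, 23 and 7 counts in PBS replicates 1 to 4 and 15, 18, 19 and 23 counts in rFSTL1 replicates 1 to 4. In CPM this was 1.09, 0.996, 1.13 and 0.46 under PBS and 1.0, 1.11, 0.994 and 1.18 under rFSTL1. PBS replicate 4 was the lowest of the 8 libraries, and the remaining 7 lay between 0.994 and 1.18 CPM. The log2 fold change was 0.2 (standard error 0.3, 95% interval -0.43 to 0.82), with an adjusted p-value of 0.776 (edgeR, Benjamini-Hochberg). Leaving out PBS replicate 4 gave -0.01. The interval, from 0.741 to 1.77 times the PBS level, is wide, so a change within it is not excluded. How small a change could be detected at this depth was not tested.

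**Figure D2:**
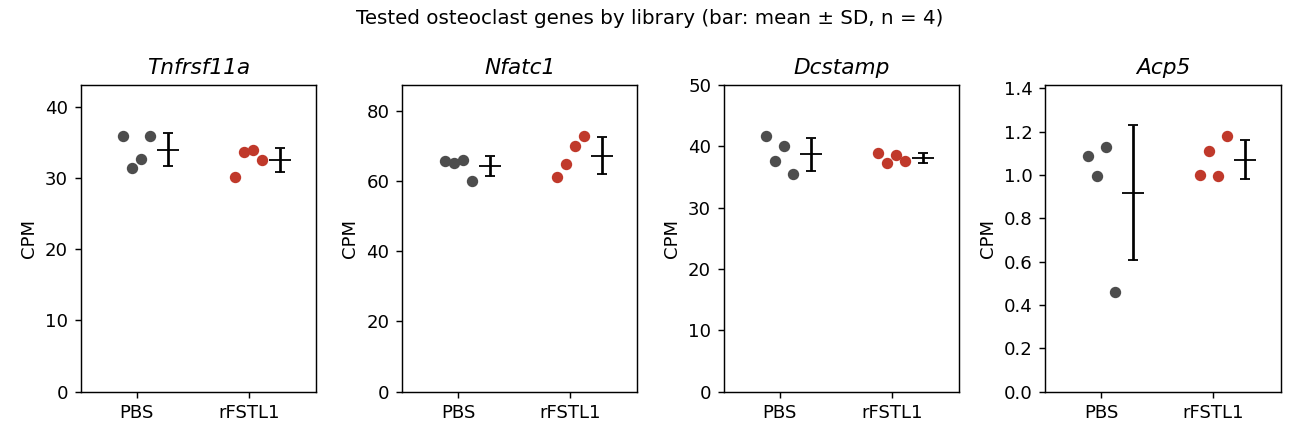
CPM in each library for the 4 osteoclast genes with enough counts to be tested, with PBS in gray and rFSTL1 in red, in the order of the replicate numbers, which carry no order in time or dose. Bars beside the points give the mean ± SD (n = 4); the groups overlap in every panel, and PBS replicate 4 is the low point for Acp5 at 0.46 CPM.

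Of the 4 genes tested, 0 had an adjusted p-value under 0.05, against 0.344% of all 10748 genes tested (37 genes). None of the 4 had an unadjusted p-value under 0.05 by edgeR, a share that was 15.9% over all genes. The voom method of limma with sample quality weights (limma voom) called 0 of the 4, beside 454 of the 10748 genes tested. DESeq2 called 0 of the 3 to which it gave an adjusted p-value, which left out Acp5, beside 195 of the 10748 genes tested. The 2 groups did not separate for any of the 4, as they did for 8.16% of all genes tested. The median log2 fold change of the 4 was 0.022, beside 0.006 for all genes tested.

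The remaining 5 genes had too few counts for the test across genes and are given by their counts. Oscar (ENSMUSG00000054594), which encodes a collagen-binding receptor that acts with RANK, had 4 counts in PBS replicate 3 and 0 in the other 3 PBS libraries. Under rFSTL1 it had 0, 0, 1 and 2 counts in replicates 1 to 4. Calcr (ENSMUSG00000023964) had 0 of 139817206 counts over the 8 libraries, which allows a level of up to 0.0215 CPM (3 counts of the total). This limit covers counting error only.

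Ocstamp (ENSMUSG00000027670), the fusion partner gene of Dcstamp, had 1, 0, 0 and 8 counts in the PBS libraries and 0, 2, 0 and 1 in the rFSTL1 libraries. Thus 8 of the 9 PBS counts came from replicate 4. The 2 fusion genes were therefore at different levels, since Dcstamp had 5377 counts in all and Ocstamp 12.

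Ctsk (ENSMUSG00000028111) encodes cathepsin K, the protease that degrades bone collagen. It had 0, 11, 2 and 1 counts in PBS replicates 1 to 4 and 5, 7, 3 and 4 in rFSTL1 replicates 1 to 4. All 4 rFSTL1 libraries held reads, and so did 3 of the 4 PBS libraries, but PBS replicate 2 was the highest of all. The mean was 0.193 ± 0.28 CPM under PBS and 0.282 ± 0.124 CPM under rFSTL1 (SD, n = 4 each). A two-sided exact permutation test on log2(CPM + 1) over all 70 assignments of the libraries gave p = 0.514. The smallest p this design allows is 0.0286. Without PBS replicate 2 the difference on this scale went from 0.125 to 0.277 (exact permutation p = 0.0571).

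Atp6v0d2 (ENSMUSG00000028238) encodes the d2 subunit of the V-ATPase, the proton pump that acidifies the resorption pit, and this isoform is prominent in osteoclasts. Its counts were 1, 5, 4 and 1 under PBS and 11, 1, 3 and 2 under rFSTL1. The single high library, rFSTL1 replicate 1, held 11 of the 17 counts of its group. The exact permutation p was 0.714 for Atp6v0d2, 0.714 for Ocstamp and 1.0 for Oscar (two-sided, n = 4 each). In a fit without a count filter, edgeR gave adjusted p-values of 0.921 for Oscar, 0.619 for Ocstamp, 0.807 for Ctsk and 0.712 for Atp6v0d2 with Benjamini-Hochberg adjustment.

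**Figure D3:**
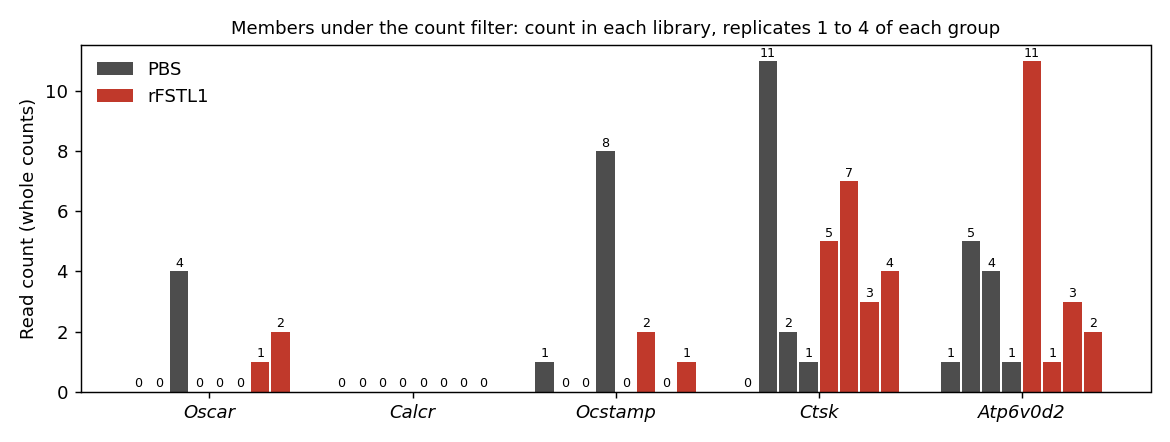
Whole read counts of the 5 osteoclast genes under the count filter, 1 bar per library in the order of the replicate numbers, with PBS in gray and rFSTL1 in red and each count printed above its bar. A single library holds 8 of the 12 Ocstamp counts (PBS replicate 4), another 11 of the 28 Atp6v0d2 counts (rFSTL1 replicate 1), and Calcr has no bar.

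The other genes of the RANKL pathway were taken from a list of 84 genes in 8 roles, of which 68 could be tested. By edgeR, 1 of these rose and 0 fell under rFSTL1 (1.47% in all), beside 0.326% of all genes tested that rose and 0.0186% that fell, and the median log2 fold change of the 68 was 0.024. Among them 17 had an unadjusted p-value under 0.05 by edgeR, 12 higher and 5 lower (25.0%, beside 15.9% of all genes tested). DESeq2 called 4 of the 68 (4 higher), beside 195 of the 10748 genes tested. The limma voom fit called 6 (5 higher, 1 lower), beside 454 of the 10748. These values over all genes are also the background for the counts by role below, where each role holds few tested genes.

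Neither the RANK ligand gene Tnfsf11 nor the decoy receptor gene Tnfrsf11b had a count in any library. Csf1, which encodes the survival factor M-CSF, was low at 2.25 CPM under PBS (log2 fold change 0.05, standard error 0.22). Its receptor gene Csf1r had 1255 ± 35.0 CPM (SD, n = 4) under PBS and a log2 fold change of 0.02 (standard error 0.04). Traf6, the adaptor that RANK recruits, had 66.3 CPM and a log2 fold change of 0.01. The ITAM adaptor genes Fcer1g and Tyrobp had log2 fold changes of 0.23 (adjusted p = 0.162) and 0.12 (adjusted p = 0.207) by edgeR with Benjamini-Hochberg adjustment. Fcer1g protein pairs with OSCAR, whose own gene was almost uncounted. Of the 8 receptor and adaptor genes, 5 could be tested and 0 passed the threshold by edgeR, DESeq2 or limma voom (2 had an unadjusted p-value under 0.05 by edgeR), while Lgr4, Siglec15 and Sirpb1a had 16, 7 and 6 counts over all libraries.

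Of 16 kinase and calcium signaling genes tested, edgeR and DESeq2 called 0 and limma voom 1, and 4 had an unadjusted p-value under 0.05 by edgeR. The smallest unadjusted p-values were those of Ppp3cb, a catalytic subunit of calcineurin, which dephosphorylates NFAT proteins (log2 fold change -0.19, adjusted p = 0.164), and of Btk (-0.11, adjusted p = 0.221), both by edgeR with Benjamini-Hochberg adjustment. The limma voom call was Ppp3cb, which was lower (log2 fold change -0.23, adjusted p = 0.0266), and edgeR called it without rFSTL1 replicate 1 (-0.26, adjusted p = 0.0405). Src, a kinase of the osteoclast ruffled border, had 0.186 CPM under PBS and was not tested.

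Among 17 transcription factor genes tested, Junb rose by edgeR. JunB is an AP-1 subunit, and AP-1 acts with NFATc1 at osteoclast genes. Junb was at 74.3, 76.3, 81.5 and 74.4 CPM in the PBS libraries and at 95.9, 92.1, 95.8 and 107 CPM in the rFSTL1 libraries, with no overlap. Its log2 fold change was 0.35 (standard error 0.05, adjusted p = 0.00895, edgeR with Benjamini-Hochberg adjustment). The adjusted p-value was 0.0537 without PBS replicate 2 and 0.0748 without PBS replicate 4, and ranged from 7.28e-06 to 0.0748 over the alternatives. Fosl2, another AP-1 subunit gene, had a log2 fold change of 0.32 and an adjusted p-value of 0.0626 by edgeR, 0.00619 by DESeq2 and 0.035 by limma voom, each after Benjamini-Hochberg correction. Fos, whose product is required for osteoclast formation, was low at 6.37 CPM under PBS (log2 fold change 0.17, standard error 0.12). Mitf and Spi1, lineage factors that bind osteoclast gene promoters, had log2 fold changes of -0.05 (standard error 0.08) and 0.13 (standard error 0.06).

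Of the 6 repressor genes, all tested, edgeR called 0 and DESeq2 and limma voom 1. An unadjusted p-value under 0.05 by edgeR was given to 2 of the 6, beside 15.9% of all genes tested. Irf8, which restrains Nfatc1 in precursors, had 53.2 ± 3.58 CPM with PBS and 62.7 ± 3.0 CPM with rFSTL1 (SD, n = 4 each), a log2 fold change of 0.23. Its adjusted p-value was 0.0951 by edgeR, 0.0244 by DESeq2 and 0.0181 by limma voom, each with Benjamini-Hochberg adjustment. Id2 had a log2 fold change of 0.23 (adjusted p = 0.212, edgeR with Benjamini-Hochberg adjustment). Bcl6 was at 62.6 CPM under PBS, with a log2 fold change of 0.06 (standard error 0.05). Prdm1, which encodes Blimp1, a factor that silences these repressors during osteoclast formation, had 1 count in PBS replicate 4 and 0 in the other 7 libraries.

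The fusion and adhesion list gave 7 tested genes, of which edgeR and DESeq2 called 0 and limma voom 1, and 2 had an unadjusted p-value under 0.05 by edgeR. Adam8 and Cd81 had log2 fold changes of 0.14 and 0.14, with adjusted p-values of 0.192 and 0.247 by edgeR with Benjamini-Hochberg adjustment, and limma voom called Adam8 (adjusted p = 0.0464). Itgb3, the beta 3 integrin subunit of the osteoclast vitronectin receptor, had 5 to 11 counts per library and was not tested.

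Of 16 genes of acid secretion and resorption, 14 could be tested and 0 passed by edgeR, DESeq2 or limma voom (1 had an unadjusted p-value under 0.05 by edgeR). Atp6v0d1, the general isoform gene of the V-ATPase d subunit, had 67.7 CPM per kb under PBS, 1225 times the 0.0553 CPM per kb of Atp6v0d2, whose level rests on 11 PBS counts. Tcirg1, the a3 subunit gene, had 298 CPM and Car2, a carbonic anhydrase that supplies protons, 101 CPM under PBS, with log2 fold changes of 0.06 and -0.05. Mmp9, a matrix protease of osteoclasts, had 0 to 7 counts per library, and Mmp14 had 0 in all. Snx10, a sorting nexin gene, and Atp6v1a had the smallest unadjusted p-values (log2 fold changes -0.19 and -0.07, adjusted p = 0.262 and 0.418, edgeR with Benjamini-Hochberg adjustment). Of the coupling factor genes, 2 of 6 were tested, and edgeR called 0 and DESeq2 and limma voom 1. Pdgfb had a log2 fold change of 0.31 (adjusted p = 0.0673 by edgeR, 0.00667 by DESeq2 and 0.014 by limma voom, with Benjamini-Hochberg adjustment) and Sema4d 0.03.

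**Figure D4:**
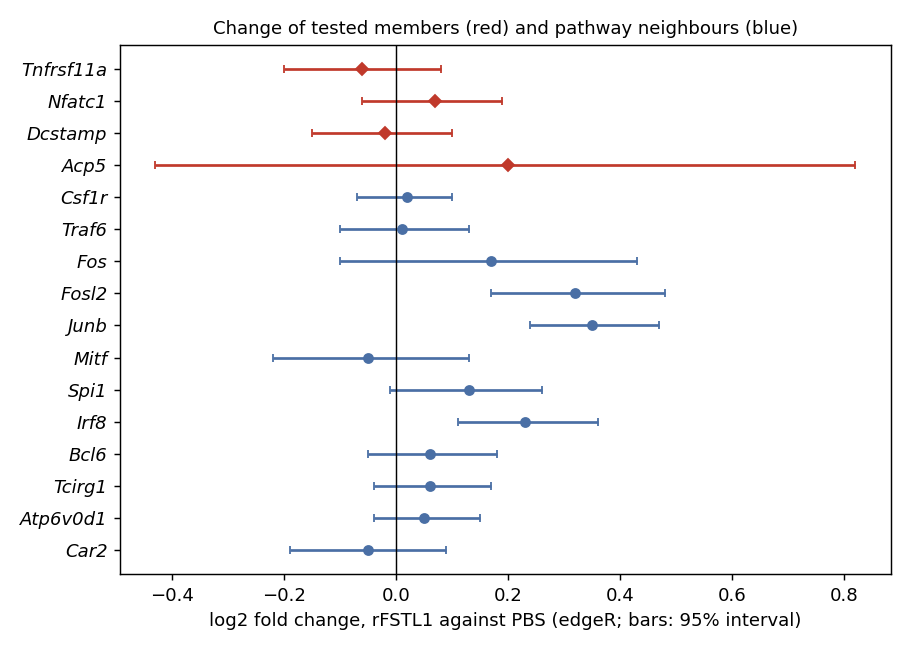
Log2 fold change of rFSTL1 against PBS (edgeR) with 95% intervals for the 4 tested osteoclast genes (red diamonds) and 12 pathway genes (blue circles). The 4 red intervals include 0, that of Acp5 being the widest at -0.43 to 0.82. Of the genes drawn, Junb at 0.35 is the point farthest to the right. Myc, a tested pathway gene not drawn, was at 0.59 (95% interval 0.1 to 1.07, adjusted p = 0.239, edgeR with Benjamini-Hochberg adjustment).

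Across the 8 libraries the 4 tested genes did not vary as a block. Pearson's r of log2 CPM was 0.639 for Dcstamp with Acp5 and 0.62 for Nfatc1 with Acp5, and -0.006 for Tnfrsf11a with Nfatc1 and -0.02 for Tnfrsf11a with Dcstamp. The points share the libraries and their scaling. PBS replicate 4 was the lowest library for Nfatc1, Dcstamp and Acp5. The most alike patterns among all genes tested were those of Rab11b (r = 0.972) and Rab3ip (0.972) for Nfatc1, and of Tacc3 (0.954) and Akr1b1 (0.937) for Tnfrsf11a, each over 8 libraries. For Dcstamp they were Klhl23 (0.951) and Zdhhc24 (0.947), and for Acp5 Snrnp25 (0.961) and Abhd14a (0.96), each picked as the highest among all the genes tested.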

How the data were processed

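RNA from 8 libraries of RAW264.7 cells, 4 given PBS and 4 given rFSTL1, was enriched for mRNA and sequenced on an Illumina NovaSeq instrument. The authors deposited expected counts (estimated counts) per Ensembl gene without normalization. The submitters' processing notes name Bowtie2 2.2.8, HISAT2, StringTie 1.3.1 and DESeq2, without their roles. The genome build and annotation are not given in the sources used here. Of the nonzero values, 13% were not whole (tolerance 1e-06), and all were rounded. Groups and replicate numbers came from the labels. The design assumed expected counts.

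Genes were kept by filterByExpr (minimum count 10), scaled by TMM and compared with edgeR 4.0.16 in R 4.3.3 (glmQLFit, glmQLFTest, Benjamini-Hochberg over all genes tested, threshold 0.05). Standard errors and 95% intervals came from the fold change and the F statistic. Single genes were also tested by exact two-sided permutation on log2(CPM + 1). Exon lengths were the union of GENCODE M21 exons (GRCm38), available for 21827 genes. Promoter windows came from RefSeq (GRCm38.p6). Alternatives were DESeq2 1.42.0, limma 3.58.1 (voom with sample quality weights, called limma voom here) and other scalings and filters. Further alternatives were a threshold of 0.1, a pseudocount of 0.1, the replicate number as a block and leaving out each library.

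The 9 genes and the lists were chosen with earlier results of these data known. All 9 genes are described. Of the pathway list, the genes with an adjusted p-value under 0.05, the 2 tested genes with the smallest p in each role and the pathway neighbors of the 9 genes are named. Tnfrsf11b, Src, Myc, Mmp14, Lgr4, Siglec15, Sirpb1a, Adgre1 and Mrc1 were chosen after their values were seen. Of the genes this rule names, 1 is not reported here, and the rest of the list is given as counts. Libraries of a group differed by more than sampling noise (chi-square per degree of freedom at least 3.02 over genes with 10 or more counts). The edgeR script was checked on simulated counts.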

Additional observations from a re-analysis of the deposited data

Results flagged for a closer look

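A library was looked at again where its distance to the nearest of the other 3 libraries of its group was more than 0.829 of the group's range in CPM. Over 16 groups tested, 5 met this rule. The rate of about 1 in 20 groups that chance gives holds for continuous values and not for groups of a few counts, where 1 library with reads beside 3 at 0 always meets the rule. Of the 5, all but Nfatc1 rest on 4 to 11 counts in the library singled out.

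Nfatc1 in PBS replicate 4 was 60.1 CPM (915 counts), while the other PBS libraries had 65.0 to 66.0 CPM. Ocstamp in the same library was 0.526 CPM (8 counts), above the 0.0 to 0.0607 CPM of the others. Ctsk in PBS replicate 2 was 0.609 CPM (11 counts), against 0.0 to 0.0987 CPM in the other PBS libraries. Oscar in PBS replicate 3 was 0.197 CPM (4 counts), against 0.0 in the others. Atp6v0d2 in rFSTL1 replicate 1 was 0.735 CPM (11 counts), against 0.0616 to 0.157 CPM in the other rFSTL1 libraries.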

How the results depend on the processing

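The count of osteoclast genes past the threshold was 0 in all 16 alternatives run. Tnfrsf11a (-0.09 to -0.03 without 1 library) and Nfatc1 (0.03 to 0.1) kept their direction in every alternative, and their adjusted p-values were at least 0.533 and 0.326. The direction of Dcstamp reversed without PBS replicate 1 (log2 fold change 0.01, range without 1 library -0.07 to 0.01) and that of Acp5 without PBS replicate 4 (-0.01, range -0.01 to 0.32). DESeq2 gave no adjusted p-value for Acp5. On log2(CPM + 1), leaving out 1 library gave differences of -0.003 to 0.18 for Acp5, -0.058 to 0.017 for Dcstamp, -0.172 to 0.032 for Ocstamp (reversed without PBS replicate 4), -0.051 to 0.185 for Atp6v0d2 (reversed without rFSTL1 replicate 1) and -0.04 to 0.054 for Oscar (reversed without PBS replicate 3 and without rFSTL1 replicate 1 or 2), with each exact permutation p at least 0.171. For Ctsk the difference of 0.125 was 0.049 to 0.277, with exact permutation p-values of 0.0571 to 0.8, the lowest without PBS replicate 2. With a pseudocount of 0.1, Oscar also reversed, to 0.013.

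The count over all genes, 37, became 195 by DESeq2 (128 higher, 67 lower), 454 by limma voom (244 higher, 210 lower), 56 with upper-quartile factors, 127 with every gene counted at least 1 time and 133 at a threshold of 0.1, and was 11 to 99 without 1 library. The count of pathway genes, 1, became 4, 6, 2, 3 and 4 under the same alternatives in that order, and was 0 to 2 without 1 library. All were higher except Ppp3cb, called lower by limma voom and without rFSTL1 replicate 1. Their cause was not tested.

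Same-numbered libraries showed no shared deviation, with correlations of -0.034, 0.014, -0.01 and -0.009. The labels do not say whether they were handled as pairs, and these values cannot settle it. Under the replicate block, the edgeR fit called 41 genes, 1 pathway gene and 0 of the 9 genes, with log2 fold changes of -0.06 for Tnfrsf11a, 0.06 for Nfatc1, -0.02 for Dcstamp and 0.22 for Acp5.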
